A study of Caenorhabditis elegans with 2 samples.

Results

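The spliceosome removes introns from pre-mRNA, and its parts are encoded by several gene families. Sm proteins form a ring on each small nuclear RNA, prp-named factors assemble and drive the catalytic core, and U2AF and SF3b select the 3′ splice site and the branch site. SR proteins and hnRNPs bind nascent RNA and influence which sites are used. ALY-2 is one of the worm's Aly/REF adaptors, proteins that in other animals load onto spliced, capped mRNA and hand it to the export receptor, so these genes encode the machinery that acts on RNA just before or together with such an adaptor.

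Among 19985 protein-coding genes, 43 carried a name that starts with rsp-, snr-, prp-, uaf-, sftb- or hrp and were taken as the splicing factor and hnRNP genes. They comprised 8 SR protein genes, 7 Sm protein genes, 13 prp factor genes, 5 U2AF and SF3b genes and 10 hnRNP genes. The genes lay on chromosomes I (8), II (10), III (11), IV (8), V (5) and X (1), with a median length of 2503 bp against 2026 bp for all protein-coding genes. The shortest was snr-6 at 458 bp and the longest hrpu-2 at 21042 bp.

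ALY-2 on chromatin was mapped by ChIP-seq, which sequences the DNA recovered with a protein, in whole third-stage (L3) larvae of Caenorhabditis elegans of mixed sex. Both samples were biological replicates of 1 group, strain OP217, whose genotype is given as unc-119(ed3) III; ddIs172 with an insertion that targets aly-2, and the protein carried an eGFP tag. Neither the promoter that drives the transgene nor the endogenous aly-2 status is given in the sources used here, and no control samples were analysed here. Whole animals were used, so a weak region and a region bound in few cells cannot be told apart.

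Regions are the authors' deposited intervals on ce11 (the same assembly as WBcel235), each with a summit and a height, which is the authors' signal value. The pooled list held 17335 regions with a median height of 18.1, and the optimal list its 368 highest, down to a height of 43.6. Replicate 1 listed 30000 regions and replicate 2 listed 26751, with median heights of 9.33 and 9.31. A gene was counted where a summit lay within 500 bp of its annotated 5′ or 3′ end, and the highest such region gave its height and rank, rank 1 being the highest. The depth behind the lists is unknown, because no reads were analysed, and the heights of different lists are on scales of their own.

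Few of the splicing factor and hnRNP genes reached the optimal list. At the 5′ end 1 of 43 did (2.33%, hrpu-1), against 0.891% of all protein-coding genes. At the 3′ end 2 of 43 did (4.65%, hrpu-1 and hrpa-1), against 1.31%. Counts of 1 and 2 genes are too small to set the members apart from that background.

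Regions of the whole pooled list were more common at these genes than at all protein-coding genes, and so were its 1000 highest. A pooled region lay at the 5′ end of 18 of 43 (41.9%), against 19.4% of all genes, and at the 3′ end of 20 of 43 (46.5%), against 26.1%. Among the 1000 highest pooled regions, the 5′ count was 4 (9.3%, against 2.18%) and the 3′ count 7 (16.3%, against 3.35%). Either end was reached in 26 of 43 (60.5%, against 37.8%), and both ends in 12 (27.9%, against 7.69%). All members shared 1 group of animals, and neighbouring genes can share a region, so these shares are descriptions and were not tested for a difference.

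Taken separately, replicate 1 gave a region at the 5′ end of 23 members (29.8% of all genes) and replicate 2 at that of 20 (27.2% of all genes). Both replicates did so in 14 of 43 (32.6%), against 12.8% of all genes. For the 3′ end the counts were 22 (36% of all genes) and 21 (33.6% of all genes), and both replicates did so in 17 of 43 (39.5%), against 18.7%. Such a count does not require the replicate regions to be the same one. They overlapped in 13 members at the 5′ end (10.5% of all genes) and in 13 at the 3′ end (15.3% of all genes). Far fewer were high in both: 1 member at the 5′ end (hrpu-1, against 0.791% of all genes) and 2 at the 3′ end (hrpu-1 and hrpa-1, against 1.2%) were among the 1000 highest regions of each replicate.

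**Figure D1:**
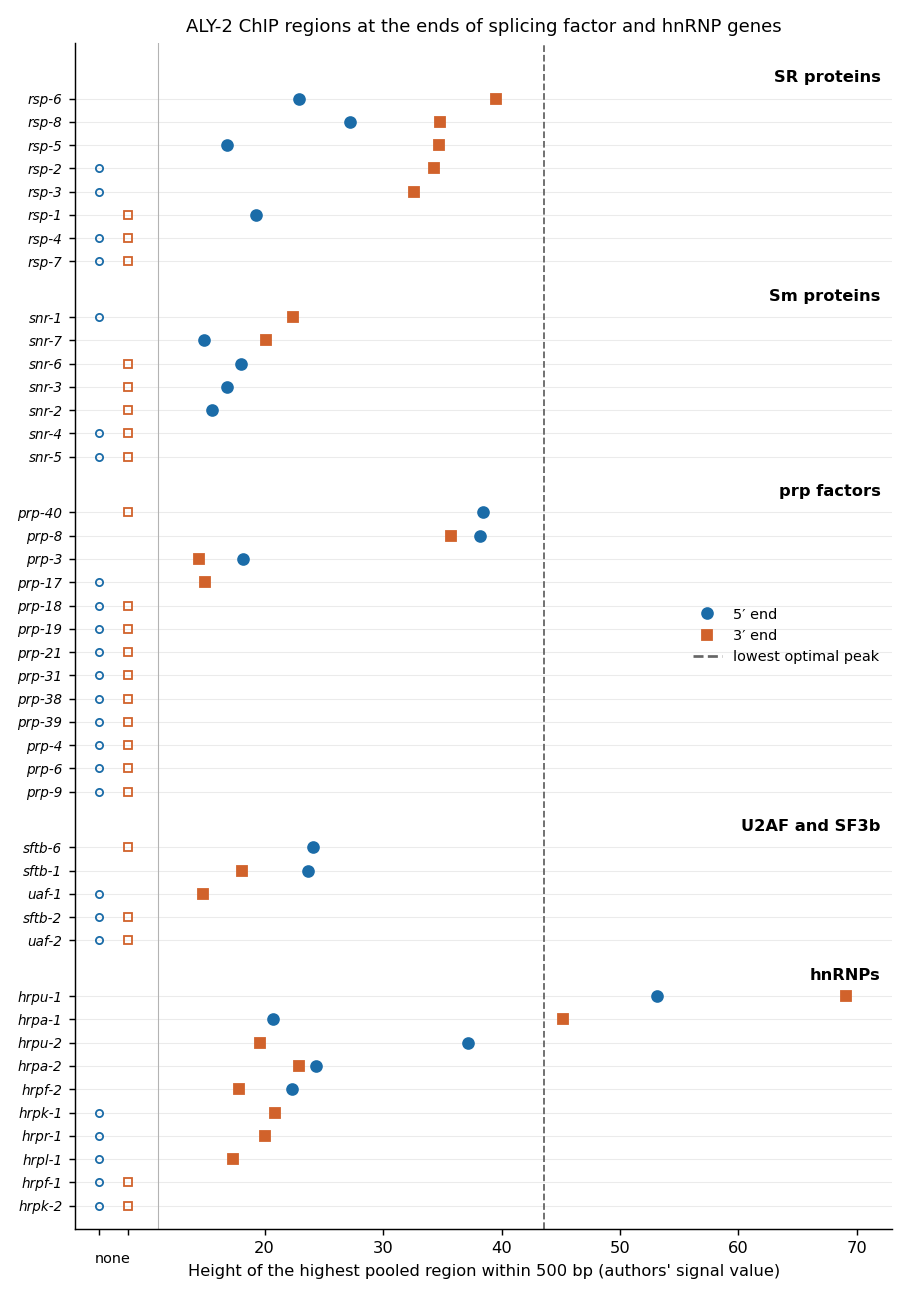
Height of the highest pooled region near (500 bp or less from) the 5′ end (circles) and 3′ end (squares) of each of the 43 genes, by family, in the authors' signal value; open symbols at the left mark ends with no region, and the dashed line is the lowest optimal peak (43.6). The points of hrpu-1 (53.1 and 69.1) and the 3′ point of hrpa-1 (45.2) are to the right of that line, and 5 SR protein genes have 3′ regions between 32.6 and 39.5.

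The DNA under 6 of the highest summits not inside an annotated untranslated region is shown here, since these windows underlie regions described in detail further on. The summit at hrpa-1 lies in an annotated untranslated region and that at snr-4 outside the 500 bp window, so neither is among them. Each reaches up to 50 bases to either side of the pooled summit from the RefSeq copy of WBcel235 (ce11), written 5′ to 3′ on the strand of the named gene. Capitals mark the 7 bases centred on the deposited summit. The windows are hrpu-1 beyond its 3′ end (chrIV:15049597-15049697, plus strand), hrpu-1 before its 5′ end (chrIV:15039552-15039608, plus strand, shortened to 57 bases), rsp-6 beyond its 3′ end (chrIV:7789708-7789808, minus strand), prp-40 before its 5′ end (chrIII:9521807-9521907, plus strand), prp-8 before its 5′ end (chrIII:8164036-8164136, plus strand) and hrpu-2 before its 5′ end (chrIV:2177649-2177749, plus strand).
hrpu-1, beyond the 3′ end: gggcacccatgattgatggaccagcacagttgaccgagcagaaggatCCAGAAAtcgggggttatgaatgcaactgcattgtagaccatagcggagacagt
hrpu-1, before the 5′ end: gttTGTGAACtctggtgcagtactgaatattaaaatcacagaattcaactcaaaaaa
rsp-6, beyond the 3′ end: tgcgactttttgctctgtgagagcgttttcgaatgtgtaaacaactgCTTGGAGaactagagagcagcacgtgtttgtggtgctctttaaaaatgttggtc
prp-40, before the 5′ end: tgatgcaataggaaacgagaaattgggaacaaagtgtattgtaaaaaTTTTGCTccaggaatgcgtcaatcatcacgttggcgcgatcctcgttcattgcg
prp-8, before the 5′ end: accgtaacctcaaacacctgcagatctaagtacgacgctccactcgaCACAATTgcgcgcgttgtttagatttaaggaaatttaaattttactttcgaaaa
hrpu-2, before the 5′ end: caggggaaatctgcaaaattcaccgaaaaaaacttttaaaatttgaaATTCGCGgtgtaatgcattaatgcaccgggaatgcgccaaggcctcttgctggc

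The first of these windows lies wholly in coding sequence of the neighbour srt-47 and the other 5 lie outside annotated exons. Their GC content was 51.5% in the coding window, 31.6% in the short hrpu-1 window and between 39.6% and 43.6% in the other 4. Of the 4 promoter words that are spelled out further on, read on either strand, the prp-8 window alone held one, GCGCGC, next to its summit. A match is a description of letters and not a site.

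The highest pooled regions at a member end were at hrpu-1, a relative of mammalian hnRNP U, a protein that binds both nascent RNA and chromatin. The gene spans 15039616 to 15049333 on the plus strand of chromosome IV. Beyond its 3′ end, the pooled region at 15049449 to 15049844 had a height of 69.1 and rank 82. In replicate 1 the region there was 43.6 high at rank 38, and in replicate 2 it was 33.9 high at rank 179. At the 5′ end, the pooled region at 15039360 to 15039755 had a height of 53.1 and rank 186, with 30.4 at rank 121 in replicate 1 and 25.6 at rank 459 in replicate 2. Both ends were thus high in each replicate, and hrpu-1 was the single member with an optimal peak at each end.

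Neither pooled hrpu-1 summit was closest to hrpu-1. The 3′ summit lay 314 bp past the end of hrpu-1, inside the convergent gene srt-47 and 267 bp from the 3′ end of that gene. The 5′ summit lay 58 bp upstream of hrpu-1 but 7 bp from the 3′ end of eef-1B.2, a translation elongation factor gene on the same strand that ends 64 bp before hrpu-1 begins. The noncoding RNA gene Y41E3.459 lay 118 bp from the same summit. The replicate summits at the 5′ end were 146 bp apart. That of replicate 2 was 58 bp upstream of hrpu-1, and that of replicate 1 was 88 bp inside it, within Y41E3.459. Which of these genes the regions belong to cannot be told apart here.

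Of the hnRNP genes, hrpa-1 was the other with an optimal peak. Its product resembles hnRNP A1, an abundant nuclear RNA-binding protein, and the gene spans 3336920 to 3338867 on the minus strand of chromosome IV. At its 3′ end the pooled region at 3336759 to 3337154 had a height of 45.2 and rank 318. Replicate 1 gave 26.5 at rank 206 and replicate 2 gave 31.9 at rank 223, so the replicates ranked it alike. The summit was 37 bp inside hrpa-1 and 84 bp from the 5′ end of the tandem gene F42A6.6. The 5′ end of hrpa-1 carried a much lower region, at 20.7 and rank 5510.

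A second hnRNP U relative, hrpu-2, carried a 5′ region that rested on replicate 2. Its pooled height was 37.2 at rank 646, with 27.7 at rank 357 in replicate 2 and 9.99 at rank 12475 in replicate 1. Its summit was 197 bp upstream of hrpu-2 and 113 bp from the 3′ end of C54E4.1.

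The other hnRNP genes were lower. The hnRNP A relative hrpa-2 had regions of 24.3 (5′, rank 3020) and 22.9 (3′, rank 3823), and hrpf-2, of the hnRNP F and H family, had 22.3 (5′, rank 4235) and 17.8 (3′, rank 9097). At hrpk-1, an hnRNP K relative, a 3′ region of 20.9 ranked 5262, and at hrpr-1 and hrpl-1 the 3′ regions were 20 (rank 6142) and 17.3 (rank 10054). No pooled region lay at either end of hrpf-1 or hrpk-2. For the 10 hnRNP genes, that made 5 with a 5′ region (50%, against 19.4% of all genes) and 8 with a 3′ region (80%, against 26.1%). Both replicates had a region in 5 of the 10 at the 5′ end (50%, against 12.8%). At the 3′ end they also did in 5 (50%, against 18.7%).

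**Figure D2:**
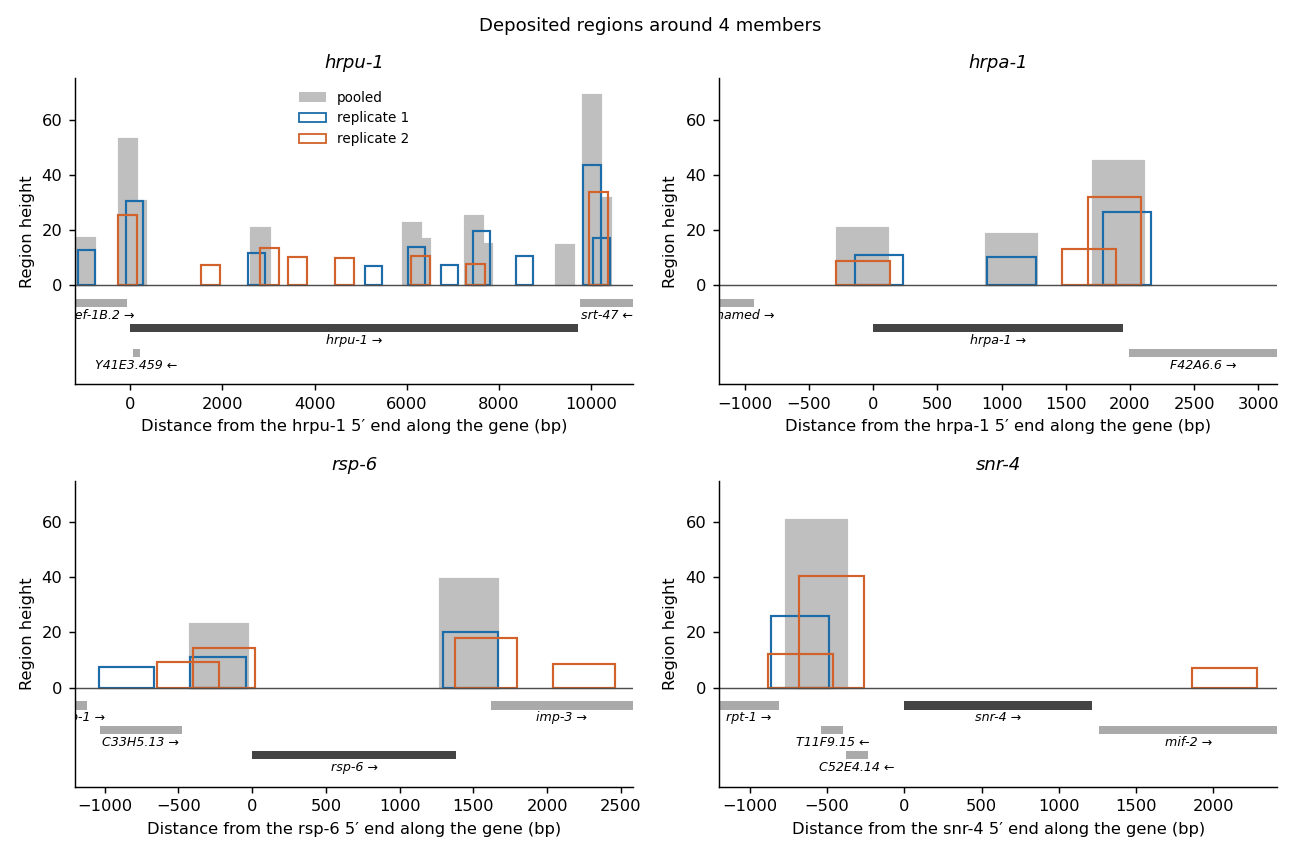
Deposited regions around hrpu-1, hrpa-1, rsp-6 and snr-4, each as a box of its height (authors' signal value) against the distance in bp from the 5′ end of the gene along its strand; grey boxes are pooled, blue replicate 1 and orange replicate 2, and bars below are annotated genes with arrows for direction relative to the named gene. The tallest grey boxes are 69.1 beyond the 3′ end of hrpu-1, 45.2 at the 3′ end of hrpa-1, 39.5 beyond the 3′ end of rsp-6 and 60.8 upstream of snr-4.

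The SR protein genes with regions at both ends, rsp-5, rsp-6 and rsp-8, had the higher pooled one at the 3′ end. Both replicates had the same order in rsp-6 and rsp-8, and replicate 1 in rsp-5 (7.89 at the 5′ end and 19.6 at the 3′ end). In replicate 2 the order in rsp-5 was the opposite, with 12.4 at the 5′ end and 11.6 at the 3′ end. SR proteins bind exonic enhancers through RNA recognition motifs and carry a domain rich in arginine and serine. Of the 8 genes, 5 had a 3′ pooled region (62.5%, against 26.1% of all genes), and all 5 ranked between 544 and 1033. A 5′ region was present in 4 of the 8 genes (50%, against 19.4%), at ranks between 1999 and 10840. Of the 8 genes, 4 were among the 1000 highest pooled regions at the 3′ end (rsp-6, rsp-8, rsp-5 and rsp-2), against 3.35% of all genes. With the 1000 highest regions of replicate 2 alone the count was 1 (3.32% of all genes), and with those of replicate 1 alone it was 3 (2.88% of all genes). A count of 1 in 8 genes is too small to set the family apart from that background.

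At rsp-6 (chromosome IV, 7789847 to 7791229, minus strand) the 3′ region had a pooled height of 39.5 at rank 544. Replicate 1 gave 20.2 at rank 722 and replicate 2 gave 17.9 at rank 1580. The summit lay 89 bp past rsp-6, in the 233 bp gap before the tandem gene imp-3. The 5′ region of rsp-6 was 22.9 high at rank 3785.

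At rsp-8, a relative of the splicing regulator Tra2, the 3′ region was 34.8 high at rank 835, with 14.6 at rank 3153 in replicate 1 and 22.1 at rank 745 in replicate 2. In rsp-5 it was 34.7 high at rank 842, with 19.6 at rank 826 and 11.6 at rank 7226. For rsp-2 the values were 34.3 at rank 876, with 16.4 at rank 1864 and 11.7 at rank 6948. For rsp-3, the orthologue of mammalian ASF/SF2, they were 32.6 at rank 1033, with 19.3 at rank 879 and 11.8 at rank 6754. The regions of rsp-5, rsp-2 and rsp-3 stood nearer the top of the list of replicate 1, and that of rsp-8 nearer the top of the list of replicate 2.

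No SR protein gene was among the 1000 highest regions of both replicates, against 0.791% of all genes at the 5′ end and 1.2% at the 3′ end. In so small a family, such an absence does not set the SR protein genes apart from that background. The SR protein genes counted at the 3′ end in replicate 1 were rsp-6, rsp-5 and rsp-3, and the one in replicate 2 was rsp-8. In 4 of the 5 genes (rsp-2, rsp-3, rsp-5 and rsp-8) the summit also lay within 500 bp of the 3′ end of a protein-coding gene on the opposite strand, as did 39.4% of the 3′ regions of all genes. In rsp-2 that neighbour, W02B12.1, ended 7 bp from the pooled summit, against 11 bp to the end of rsp-2. The replicate summits there lay 146 bp apart, so these distances do not settle which end was nearer. In rsp-3 the neighbour elpc-2 ended 378 bp from the summit, closer than the 421 bp to the end of rsp-3. Of the 5 summits, 2 lay beyond the gene (40%, against 65.6% of all genes' 3′ regions). Those of rsp-3 and rsp-8 lay 421 and 259 bp inside it. No pooled region lay at either end of rsp-4 or rsp-7, while rsp-1 had a 5′ region of 19.3 at rank 7075, listed in replicate 1 with a height of 12.3 at rank 6257. In replicate 2 the nearest rsp-1 summit was 516 bp from the start, just beyond the 500 bp used, with a height of 12.3 at rank 6003.

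**Figure D3:**
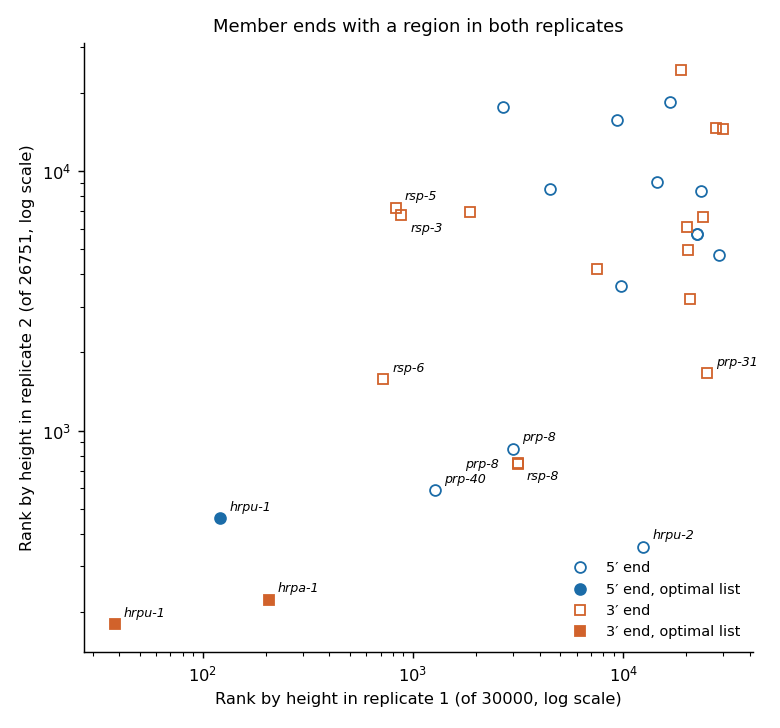
Rank of the highest region at each member end in replicate 1 (x axis) against replicate 2 (y axis), both on log scales, for the 14 5′ ends (circles) and 17 3′ ends (squares) with a region in both lists; filled symbols are in the optimal list. The 3 filled points of hrpu-1 and hrpa-1 lie at the lower left, and hrpu-2 (12475 and 357) and rsp-5 (826 and 7226) lie far from equal ranks.

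The pooled 5′ regions at Sm protein genes were low, below the median of 19.4 for all genes with one. The 1 high region at an Sm gene end, at snr-4, was in replicate 2. Of the 7 genes, 4 had a pooled 5′ region (57.1%, against 19.4% of all genes) and 2 a 3′ region (28.6%, against 26.1%). The 5′ regions ranked between 8779 and 15464, with heights from 14.9 (snr-7) to 18.0 (snr-6). The 3′ regions were 22.4 at snr-1 (rank 4167) and 20.1 at snr-7 (rank 6105), against a median of 20.1 for all genes with one. The snr-3 region, at 16.8 and rank 10840, was the same interval as the 5′ region of rsp-5, since both genes start from 1 divergent stretch of 403 bp. Its summit was 10 bp from the start of rsp-5 and 394 bp from that of snr-3. The 5′ region of snr-2 was 15.6 high at rank 13547. No pooled region lay at either end of snr-5 or, within 500 bp, of snr-4.

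At snr-4, which encodes an Sm D protein, the window decided the count. An optimal peak of height 60.8 and rank 127 (chromosome V, 11980096 to 11980491) had its summit 571 bp upstream of the gene, just outside the 500 bp used. In replicate 2 the summit was 471 bp upstream, within the window, with a height of 40.6 at rank 89. Replicate 1 placed it 679 bp upstream, with a height of 25.8 at rank 242. The pooled summit lay 33 bp from the 3′ end of the snRNA gene T11F9.15, 193 bp from the noncoding RNA gene C52E4.14 and 240 bp from the 3′ end of rpt-1, so snr-4 was not the nearest gene.

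No pooled region lay at either end of 9 of the 13 prp genes (69.2%), a share near the 62.2% of all protein-coding genes. These were the tri-snRNP factors prp-4, prp-6 and prp-31, the SF3a relatives prp-9 and prp-21, and prp-18, prp-19, prp-38 and prp-39. The 4 with a region at an end were prp-8, prp-40, prp-3 and prp-17.

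Both prp-8 and prp-40 were high. Their products are the protein at the heart of the U5 particle and the catalytic centre (prp-8) and a factor associated with the U1 particle (prp-40). Upstream of prp-40 (chromosome III, 9522075 to 9525454) the pooled height was 38.4 at rank 591, with 17.7 at rank 1276 in replicate 1 and 23.7 at rank 588 in replicate 2. The summit lay 218 bp before the gene and 397 bp from the start of the divergent clu-1. The 5′ region of prp-8 (chromosome III, 8164373 to 8172710) was 38.2 high at rank 600, with 14.7 at rank 2974 and 21.3 at rank 852. Its 3′ region was 35.7 high at rank 747, with 14.6 at rank 3143 and 22 at rank 753. All 3 of these ends stood nearer the top of the list in replicate 2. Lower regions lay at prp-3 (18.2 at the 5′ end and 14.5 at the 3′ end, ranks 8551 and 16494) and at the 3′ end of prp-17 (15, rank 15131).

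The ends of the U2AF and SF3b genes had no pooled region ranked higher than 3133, with a region at the 5′ end of 2 of the 5 genes and at the 3′ end of 2 (all genes 19.4% and 26.1%). U2AF binds the polypyrimidine tract and the AG at the end of the intron, and SF3b holds the branch site. The large U2AF subunit gene uaf-1 had a 3′ region of 14.8 at rank 15622, with 6.81 in replicate 1 and 8.97 in replicate 2. The small subunit gene uaf-2 had no pooled region at either end and, of the replicates, a region in replicate 2 at its 5′ end, 12.4 high at rank 5829. At sftb-6 a 5′ region of 24.1 ranked 3133, with 7.75 and 11 in the replicates. At sftb-1 the 5′ region was 23.7 high at rank 3366, with 20.2 at rank 723 in replicate 1 and none within 500 bp in replicate 2, and the 3′ region was 18.1 high at rank 8691. No pooled region lay at either end of sftb-2.

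With the highest region per gene, the median height was 22.6 at the 18 member 5′ ends with a pooled region and 21.7 at the 20 3′ ends, against 19.4 and 20.1 for all genes with one. Of the 18, 14 (77.8%, against 53.3% of all such genes) had a region in both replicates, and of the 20, 15 did (75%, against 60.9%). Replicate heights of the members correlated across 14 genes at the 5′ end with Spearman's rho 0.233 and Pearson's r 0.556, and across 17 at the 3′ end with 0.478 and 0.781. Without the 2 genes whose replicate 1 height was farthest from the median, these fell to −0.13 and 0.0978, and to 0.239 and 0.334. Leaving out such genes narrows the range of heights, so the fall cannot show what the correlation rested on. Over all genes with a region in both replicates the values were 0.362 and 0.647 at the 5′ end, and 0.383 and 0.569 at the 3′ end. Genes are not independent replicates, and both lists share 1 strain and stage.

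**Figure D4:**
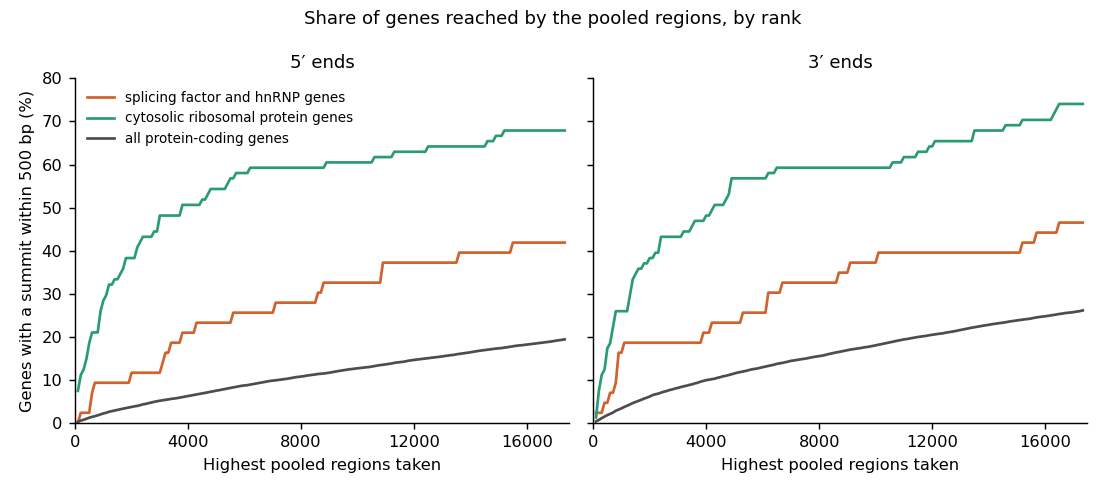
Share of genes (%) reached by a summit (500 bp or less away) at the 5′ end (left) and 3′ end (right) against the number of highest pooled regions taken, for the 43 splicing factor and hnRNP genes, 81 cytosolic ribosomal protein genes and all 19985 protein-coding genes. At all 17335 regions the curves end at 41.9%, 67.9% and 19.4% for 5′ ends and at 46.5%, 74.1% and 26.1% for 3′ ends.

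Set beside other RNA genes, the splicing factor and hnRNP genes lay between the genome and the ribosomal protein genes. Of 81 cytosolic ribosomal protein genes, which are highly expressed, 55 had a pooled region at the 5′ end and 60 at the 3′ end, with median heights of 29.0 and 27.8. Other splicing genes, a list of 70 with roles in the spliceosome or its regulation, gave 28 at the 5′ end (40%) and 30 at the 3′ end (42.9%). The 13 mRNA export genes gave 7 (53.8%) and 5 (38.5%), and hel-1 was in both of these lists. Of those other splicing genes, rsr-1 reached the optimal list at its 5′ end (rank 161), 1.43% of the 70 against 0.891% of all genes. At their 3′ ends lsm-3, rbm-25, mec-8 and snu-13 did (ranks 176, 190, 250 and 253), 5.71% against 1.31%. The rbm-25 region ranked 177 in replicate 2 and 22273 in replicate 1. No mRNA export gene reached the optimal list, which with 13 genes does not set them apart from those shares of all genes. The highest was thoc-2 at its 3′ end (rank 430), followed by aly-2 at its 3′ end (rank 539). The thoc-2 region ranked 111 in replicate 1 and 6481 in replicate 2, and the aly-2 region 916 and 681. The strain carries an insertion that targets aly-2, and its part in the aly-2 region was not tested. These lists differ in gene length, expression and neighbours, and whether they differ was not tested.

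Summit position was also described. At the 5′ end, 15 of the 18 summits (83.3%, against 61.7% of all genes' regions) lay upstream of the gene, with a median of −177 bp from the annotated start (all genes −96 bp). For the 3′ end, 14 of the 20 summits (70%, against 65.6%) lay beyond the gene, with a median of 90 bp (all genes 117 bp). Where both ends had a pooled region, these were distinct regions in all 12 members, and the 3′ region was higher in 6 (50%). Over all genes the 3′ region was higher in 737 of 1365 (54.0%). With the list of replicate 1 alone the 3′ region was higher in 8 of 12 members (55.5% over all genes). With that of replicate 2 alone it was higher in 9 of 12 (55.8% over all genes). The member count thus varied with the list, and a difference between the ends was not tested.

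**Figure D5:**
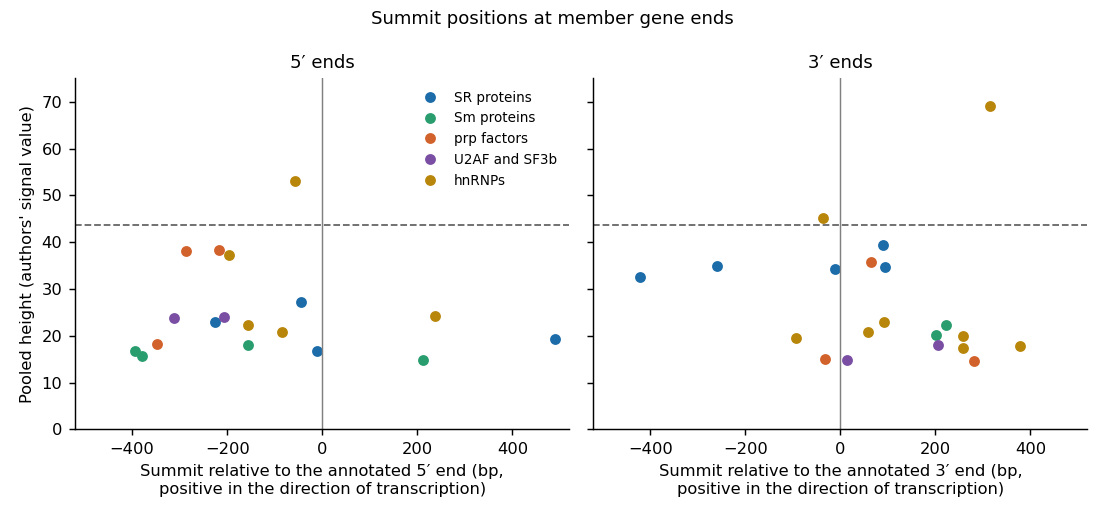
Pooled height (authors' signal value) of the highest region at each member 5′ end (left) and 3′ end (right) against the position of its summit in bp from the annotated end, positive in the direction of transcription; colours mark the family and the dashed line the lowest optimal peak (43.6). At the 5′ end 15 of 18 points lie left of 0, and at the 3′ end 14 of 20 lie right of it.

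Close neighbours limit which gene each region can be assigned to. At the 5′ end the member was the nearest protein-coding end in 11 of 18 cases (61.1%, against 74.1% of all genes with a 5′ region), and in 12 (66.7%, against 52.1%) the end of another protein-coding gene lay within 500 bp. For the 3′ end these counts were 13 of 20 (65%, against 65.2%) and 16 of 20 (80%, against 63.7%). A divergent gene started less than 1000 bp upstream of 24 of 43 members (55.8%, against 17.5% of all genes), and of these 24, 11 had a 5′ pooled region (45.8%, against 25.3% of all genes with such a neighbour). A gene on the same strand ended less than 1000 bp upstream of 10 members (23.3%, against 28.5%), and another started less than 1000 bp downstream of 19 (44.2%, against 28.6%). The part of these layouts in the share of members with a region was not tested.

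Promoter sequence was searched in windows of 250 bases before to 50 after each annotated start. These 4 words were read on both strands. The word GCGCGC was in 3 of 43 member promoters (6.98%, rsp-6, uaf-2 and hrpu-2), against 3.58% of all. The repeat GAGAGA was in 8 promoters (18.6%, against 21.8%), and the TATA-box-like word TATAAA was in 10 (23.3%, against 37.9%). The word TTTCAG, which ends like an intron, was in 31 (72.1%, against 51.7%), but in 8 of the 18 with a 5′ pooled region (44.4%, against 53.1% of all genes with one). Median GC content of the windows was 33.3%, against 34.3% for all genes.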

How the data were processed

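ChIP-seq against eGFP-tagged ALY-2 gave 2 biological replicates in 1 group. The authors deposited relaxed region lists (peaks and background) for either replicate and for both combined, per the file records, and an optimal list thresholded on the irreproducible discovery rate. The pooled list was made from both replicates' alignments plus 1 file that the records do not explain. Not given in the sources used here are the aligner, the caller and any subtraction of a control, each of which could shift heights and widths. Height means the signal value deposited by the authors for a region, and the −log10 q-value the authors deposited was not used for ranking, since many regions share its highest value. Lists on ce10 were not used, and 0 value columns of other samples were found.

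Gene ends came from Ensembl release 115 and sequence from RefSeq, both WBcel235. For each gene the highest region with a summit within 500 bp of each outermost end was taken, with Python 3.11.15, pandas 2.3.3 and numpy 2.4.6, and the assignment was tested on simulated regions. No chance test was made. Members and lists were chosen with earlier results of these data known. Genes named were members with an optimal summit, the 3 highest per family at each end, members among the 1000 highest of both replicates, uaf-1, uaf-2, members with no pooled region, and other splicing genes with an optimal summit. Genes of the mRNA export list, the neighbours, the remaining members and the snr-4 locus were named after their values were seen. Alternatives changed the window, the gene assignment, the rank limit or the replicate.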

Additional observations from a re-analysis of the deposited data

How the results depend on the processing

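Of 58 alternatives to 10 counts and medians, 36 left the value within 1.5 times of the count reported or, for medians, within the standard deviation of the 2 replicate medians. Several settings can only lower or only raise a count, and replicate heights are on scales of their own. The tally is therefore no measure of robustness. The counts of members at optimal peaks are small. At the 5′ end, 1 became 2 with a window of 1000 bp, 0 with the higher-ranked 50% of the optimal peaks, 4 with the 1000 highest pooled regions, and 1 to 2 when a replicate was left out (the 368 highest regions of the other were used). Without replicate 1 the 2 genes were snr-4 and hrpu-2, and hrpu-1 was lost, at rank 459 in replicate 2. For these 5′ settings the share of all genes was 1.18%, 0.465% and 2.18%, in the order given (0.891% as reported). It was 0.756% without replicate 1 and 0.665% without replicate 2. At the 3′ end, 2 became 1 with a window of 250 bp, with nearest genes, with the higher-ranked 50% of peaks or with peaks that overlap the end, and 7 with the 1000 highest regions, and stayed at 2 without either replicate. For these 3′ settings the share of all genes was 0.866%, 0.991%, 0.6%, 0.615% and 3.35%, in the order given (1.31% as reported). It was 1.24% without replicate 1 and 1.23% without replicate 2. Pooled 3′ regions fell from 20 to 13 members at 250 bp, and the share of all genes fell from 26.1% to 16.4%. Both-replicate counts went from 14 to 9 at 250 bp, 23 at 1000 bp and 5 with the 10000 highest regions of each replicate (5′), and from 17 to 11 at 250 bp and 9 with the 10000 highest (3′). The share of all genes moved with them (12.8% to 5.43%, 25.4% and 4.25% at the 5′ end, and 18.7% to 8.54% and 7.88% at the 3′ end). Median heights at 3′ ends were 22.4 at 250 bp and 20.5 at 1000 bp. Without replicate 1 or 2 the medians were 12.4 and 9.9 (5′) and 12.6 and 12.5 (3′), and those lists have medians over all regions of 9.33 and 9.31, against 18.1 for the pooled list. The 4 SR protein genes among the 1000 highest 3′ regions became 1 without replicate 1 (3.32% of all genes) and 3 without replicate 2 (2.88% of all genes). Alternatives using any transcript end, overlapping replicate regions and the SR count were chosen after seeing the data. No paired analysis was possible because the samples form 1 group. Without read counts, depth cannot be used to judge the regions not listed.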

Other observations

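Regions inside the genes were not part of the end counts. A pooled summit more than 500 bp inside both ends was present in 14 of the 36 members longer than 1000 bp (38.9%), against 22.8% of all protein-coding genes of that length, and the members are longer than all genes together (median 2503 against 2026 bp over all lengths). The highest was in prp-6, which had no region at either end: its height was 28.3 at rank 1737, with the summit 11682 bp from the 5′ end. Replicate 1 placed that summit 11668 bp and replicate 2 placed it 11672 bp from the 5′ end, with heights of 12.1 and 14.1. In hrpr-1 the highest inner region was 27.0 high at rank 2065, in hrpa-2 25.9 at rank 2420 and in sftb-1 24.2 at rank 3104. The 9718 bp gene hrpu-1 held 5 inner pooled regions, the highest at 25 and rank 2724, so its inner regions were lower than those at its ends. These genes were named after their values were seen.

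Regions 500 to 1000 bp from a member end included, beside the one at snr-4, a region of 26.0 at rank 2375 upstream of prp-19, with its summit 635 bp from the gene.

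In 7 of the 43 members (16.3%), no list held a summit within 500 bp of either end, against 30.9% of all protein-coding genes.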
